A study of Drosophila melanogaster with 10 samples.

Results

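Among 17559 gene identifiers counted in whole adult male Drosophila melanogaster, 20 genes were at least halved in flies with a Mef2 knockdown. They were taken by a rule on CPM (a gene's count divided by the library's total count and multiplied by 1000000). A member had a mean of at least 2 CPM in the control libraries, a knockdown mean of at most 0.5 of that, and every knockdown value below every control value. Of 11467 genes at that control level, 866 (7.55%) were lower without overlap and 22 (0.192%) were also halved. Drsl4 and Jon74E were among those 22 and were left out by name, since the rule sets aside symbols that start with Cyp, Gst, Ugt, Obp, Jon or Drsl. The members were thus chosen by their CPM in these 10 libraries, so each member's difference between the groups is given as a description, with no test.

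Mef2 is a MADS-box transcription factor best known for its part in muscle differentiation. In the adult fat body, the fly organ that stores fat and glycogen and secretes humoral immune proteins, it is known to act on metabolic and antimicrobial genes. It was lowered here with the GAL4/UAS system, in which GAL4 from a driver line turns on a transgene behind UAS sites. The transgene encodes a hairpin RNA that is processed into small RNAs directed against Mef2 mRNA.

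The 5 Mef2.IR libraries came from males labelled w[1118] / Y with the c564 driver and the hairpin transgene UAS-Mef2-IR[GD15549], each over +. The 5 Ctrl libraries came from males labelled w[1118] / Y with c564 over + and no transgene. Both groups thus carried the w mutation and the driver, and loss of Mef2 cannot be told apart from effects of the transgene, its insertion or its genetic background. The sample labels list the hairpin apart from c564, while the design text places it opposite c564. Every library held 5 pooled whole males aged 5 to 10 days after eclosion. The c564 driver is active in the fat body and in other tissues, and a whole fly holds many cells outside its range. In such bulk samples, fewer cells of a type and less RNA per cell cannot be told apart. The labels call the libraries biological replicates without saying how the flies were reared, so p-values measure the spread between these libraries.

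Total counts ran between 43823883 and 102851945 per library. Mef2 itself was modestly lower, with 73.8, 78.1, 74.3, 83.4 and 86.1 CPM in Mef2.IR replicates 1 to 5, against 94.1, 91.99, 102, 91.5 and 89.2 CPM in Ctrl replicates 1 to 5. The groups did not overlap (log2 change -0.24, SE 0.06, adjusted p = 0.0149 by the quasi-likelihood test of edgeR, adjusted over all tested genes by Benjamini-Hochberg), but within replicates 4 and 5 alone the change was -0.12 (adjusted p = 0.280). Reads from the hairpin, which carries Mef2 sequence, cannot be told apart from Mef2 mRNA in these counts. The eye pigment transporter gene w, a common marker gene of fly transgenes, averaged 399 ± 111 CPM in Mef2.IR libraries and 54.7 ± 4.77 CPM in Ctrl libraries (SD, n = 5 each). Of the oenocyte markers, 3 of 5 tested fell (Cyp4g1, FASN2 and Desat1), with sums of 20549 to 24909 CPM in Mef2.IR libraries and 30611 to 41294 CPM in Ctrl libraries, and sala was at 0 in all. Hemocyte markers rose in 6 of 11, with sums of 1016 to 1378 CPM in Mef2.IR libraries and 831 to 906 CPM in Ctrl libraries. Of 8 fat body markers, 2 rose and 1 fell, with sums of 3096 to 3728 CPM in Mef2.IR libraries and 3006 to 3784 CPM in Ctrl libraries. Accessory gland markers fell in 3 of 12, with sums of 2456 to 3318 CPM in Mef2.IR libraries and 3185 to 3456 CPM in Ctrl libraries and Acp95EF at 0. Of the 12, 8 were lower at an unadjusted p under 0.05 by edgeR, and DESeq2 called 5 lower. This list holds lectin-46Ca, whose edgeR call was lost without any 1 Ctrl library. Ejaculatory duct and bulb markers fell in 2 of 5, with sums of 1095 to 1375 CPM in Mef2.IR libraries and 1275 to 1621 CPM in Ctrl libraries. Of the 5, 4 were lower at an unadjusted p under 0.05 by edgeR, and DESeq2 called 4 lower. Peb, PebII and PebIII of this list had no match among the symbols and were left out. Of the other lists, 1 of 10 midgut markers rose, 2 of 9 Malpighian tubule markers rose and 1 fell, and 1 of 6 salivary gland markers fell. At an unadjusted p under 0.05 by edgeR, midgut markers were higher in 1 and lower in 3, and Malpighian tubule markers higher in 4 and lower in 1. In the same way, salivary gland markers were higher in 1 and lower in 1, fat body markers higher in 4 and lower in 1, and hemocyte markers higher in 8. Muscle, neuron, photoreceptor and testis markers gave 0 calls by edgeR, where an unadjusted p under 0.05 was reached by 1 muscle and 1 neuron gene (higher) and by 4 photoreceptor and 2 testis genes (lower), and DESeq2 called 2 photoreceptor genes lower. Also left out for want of a matching symbol were FASN1 (fat body), FASN3 and desatF (oenocyte), PPO1 (hemocyte), esg and Dl (midgut), and para and VAChT (neuron). No member stood on a marker list, and the part of these cell types in the members' values was not tested.

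The 20 members were 51.0% to 94.4% lower in Mef2.IR libraries, with a median of 72.4%, and 10 were lower by at least 75%. For 9 members the lowest Ctrl value was at least 3 times the highest Mef2.IR value. The rule used these same values, and the share of all genes with such a gap was not computed. Summed, the members had 932 ± 137 CPM in Mef2.IR libraries, or 0.0932% of all counts, and 5838 ± 453 CPM in Ctrl libraries, or 0.584% (SD, n = 5 each). The genes whe, lcs and CG16826 supplied 50.3% to 65.1% of that sum in Mef2.IR libraries and 75.2% to 78.1% in Ctrl libraries. Per kb of exon, 8 members were at or above percentile 90 of the Ctrl levels of genes with at least 2 CPM, while CG34290, CG31832 and alpha-Man-Ic lay between percentiles 9.03 and 17.4. The plot of change against level shows this range. The mirror rule, a Mef2.IR mean of at least 2 CPM that was at least 2 times the Ctrl mean, without overlap, was met by 130 genes. No symbol was left out of the 130 by name, so the like count is the 22 halved genes before such exclusion.

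All 20 members passed the filter on low counts and all 20 were called lower by edgeR. Over the 13928 tested genes, 768 (5.51%) were called lower and 1549 (11.1%) higher. The rule used the same contrast, so nothing is read from the members' count. Of all calls, 66.9% were higher, against 53.2% (1301 higher and 1145 lower) with upper-quartile scaling. Within replicates 4 and 5 alone the majority turned, with 1832 higher and 2011 lower (47.7% higher), and within replicates 1 to 3 alone 2150 were higher and 1386 lower (60.8% higher). Genes called lower numbered 473, 444, 414 and 454 without Ctrl replicate 1, 3, 4 or 5, and genes called higher numbered 952, 1001 and 853 without Ctrl replicate 1, 2 or 3.

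**Figure D1:**
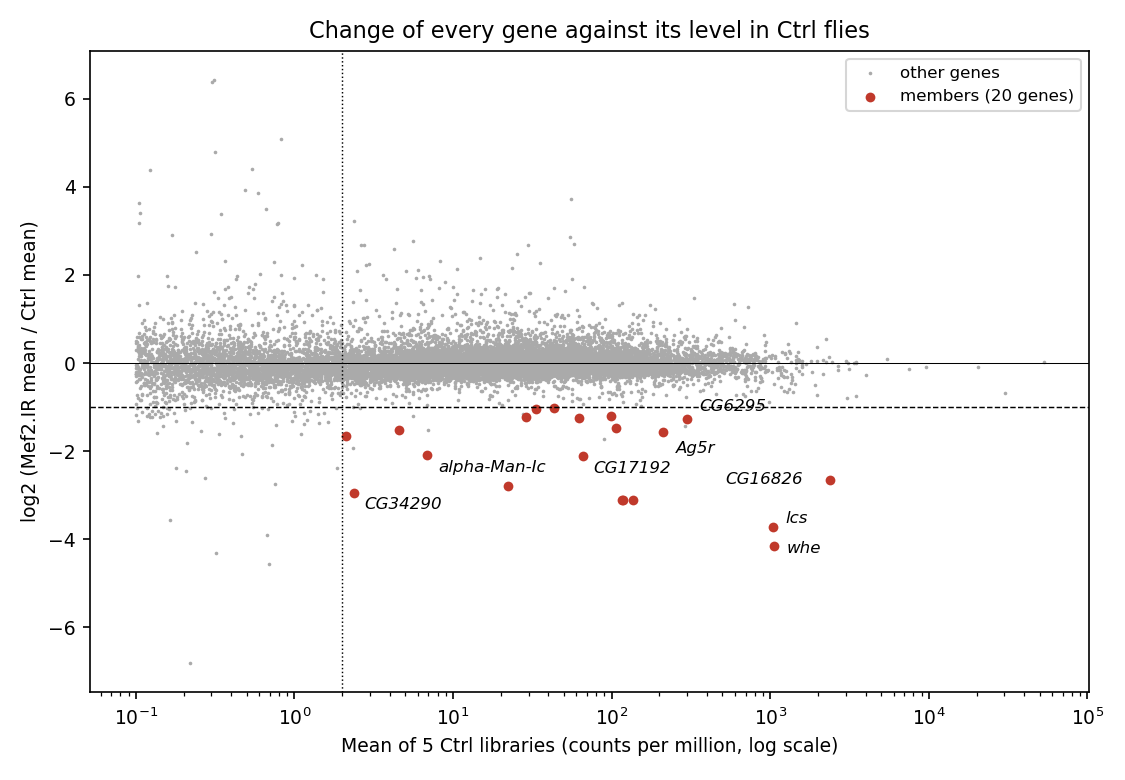
Each point is 1 gene with at least 0.1 CPM in Ctrl flies and a count in Mef2.IR flies, with the mean CPM of the 5 Ctrl libraries on a log axis and the log2 ratio of the Mef2.IR mean to the Ctrl mean on the vertical axis. Red points are the 20 members, the dashed line marks a halving and the dotted line 2 CPM. Other genes below the dashed line and right of the dotted line overlapped between the groups or were left out by name. The genes whe, lcs and CG16826 stand at the lower right, with log2 ratios of -4.17, -3.73 and -2.66.

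The largest differences were in a pair of X-linked genes, whe (FBgn0031176, chrX:21402339-21402772, minus strand) and lcs (FBgn0028583, chrX:21396727-21397316, minus strand), which lie 5.02 kb apart with no tested gene between them (positions here and later are on the BDGP6 build). Each has a single exon, and they encode proteins of 85 and 145 amino acids. The gene whe had 59.2, 43.3, 54.7, 70.8 and 67.8 CPM in Mef2.IR replicates 1 to 5, against 942, 919, 1074, 1198 and 1176 CPM in Ctrl replicates 1 to 5. The gene lcs had 63.2, 47.7, 70.2, 115 and 95.2 CPM in Mef2.IR replicates 1 to 5, against 939.5, 869, 1006, 1196 and 1187 CPM in Ctrl replicates 1 to 5. In both genes and both groups, replicates 4 and 5 were above replicates 1 to 3, and every Ctrl library was many times above every Mef2.IR library. The mean was 94.4% lower for whe (log2 ratio -4.17) and 92.5% lower for lcs (log2 ratio -3.73). Per kb of exon, their Ctrl levels of 2447 and 1762 CPM per kb stood at percentiles 99.9 and 99.8.

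Genes around this pair showed no such difference. Of 6 other genes tested within 30 kb, edgeR called 0, with 0 at an unadjusted p under 0.05 and 0 called by DESeq2. The nearest tested genes were mst, 5.19 kb from lcs (log2 change 0.18, SE 0.17, adjusted p = 0.478), and lncRNA:CR45003, 6.63 kb from whe (log2 change -0.11, SE 0.14, adjusted p = 0.589).

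**Figure D2:**
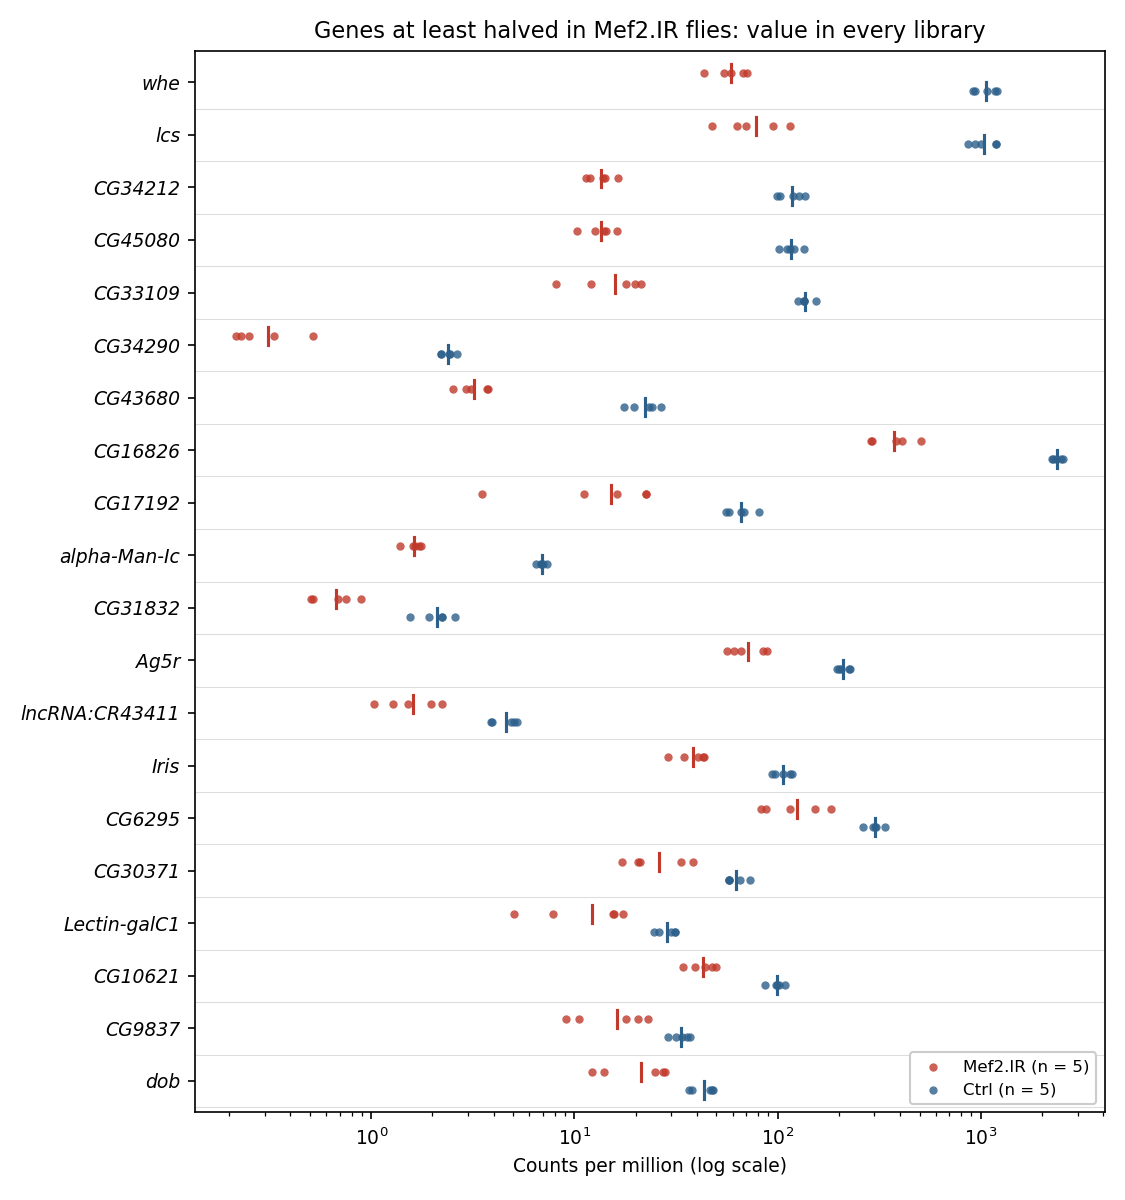
CPM of the 20 members in every library, on a log axis, in order of the size of the difference. For each gene the 5 Mef2.IR libraries are red and stand above the 5 Ctrl libraries in blue, and short vertical bars are group means. The gap is widest for whe, whose Mef2.IR libraries lie between 43.3 and 70.8 CPM and whose Ctrl libraries lie between 919 and 1198 CPM.

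The most abundant member by CPM was CG16826 (FBgn0032505, chr2L:13347773-13349020, plus strand), which has 1 exon and encodes 341 amino acids. It had 384, 293, 289, 408 and 508 CPM in Mef2.IR replicates 1 to 5, against 2259, 2256, 2342, 2553 and 2481 CPM in Ctrl replicates 1 to 5. The groups were far apart, and replicates 4 and 5 were again the highest in each. The mean was 84.2% lower. The next tested genes by start position were not called by edgeR. They were CG9395 at 0.802 kb (log2 change -0.13, SE 0.08, adjusted p = 0.229) and, much farther off, CG16825 at 39.97 kb (log2 change -0.17, SE 0.09, adjusted p = 0.193).

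Very short open reading frames formed a further group of members, for which no role is stated here. CG34212 (FBgn0085241, chr2R:6049874-6050286, minus strand) encodes 48 amino acids, CG45080 (FBgn0266455, chr3R:13318991-13319270, minus strand) encodes 55 and CG43680 (FBgn0263763, chr3L:15052998-15053351, minus strand) encodes 49. CG34212 had 14.1, 11.96, 13.8, 16.4 and 11.4 CPM in Mef2.IR replicates 1 to 5, against 103, 99.9, 119.6, 137 and 127 CPM in Ctrl replicates 1 to 5. CG45080 had 16.2, 14.2, 12.6, 14.1 and 10.3 CPM in Mef2.IR replicates 1 to 5, against 135, 121, 102, 115 and 111 CPM in Ctrl replicates 1 to 5. The 2 genes were alike in both groups' CPM, with no Mef2.IR library above 16.4 CPM and no Ctrl library below 99.9 CPM, and each was 88.5% lower. CG43680, which lies inside the span of Sytbeta on the same strand, had 3.73, 2.93, 3.09, 2.51 and 3.75 CPM in Mef2.IR replicates 1 to 5, against 23.3, 17.6, 19.6, 24.1 and 26.6 CPM in Ctrl replicates 1 to 5. Its groups were well apart and its mean was 85.6% lower.

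CG33109 (FBgn0053109, chr3R:14220560-14221584, minus strand) is a single-exon gene for 296 amino acids and had 17.97, 12.01, 8.13, 21.2 and 19.9 CPM in Mef2.IR replicates 1 to 5, against 135, 127, 135, 154 and 134 CPM in Ctrl replicates 1 to 5. The Mef2.IR libraries were spread over more than 2-fold, lowest in replicate 3, while the Ctrl libraries were close together, and the mean was 88.4% lower. The serine protease gene Sp212, 0.489 kb away on the same strand, rose, with 27.8 ± 9.78 CPM in Mef2.IR libraries and 14.5 ± 2.32 CPM in Ctrl libraries (SD, n = 5 each) (log2 change 0.94, SE 0.19, adjusted p = 0.00762 by edgeR).

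Members with an enzyme role in fat breakdown included a pair of pancreatic-type lipase genes, whose products release fatty acids from glycerides. They belong to a cluster on 3R, on the minus strand inside the span of RYa-R. CG17192 (FBgn0039472, chr3R:27017180-27018287, minus strand) had 22.6, 11.2, 16.2, 22.4 and 3.50 CPM in Mef2.IR replicates 1 to 5, against 68.3, 66.3, 57.6, 81.2 and 55.9 CPM in Ctrl replicates 1 to 5. CG6295 (FBgn0039471, chr3R:27005899-27007055, minus strand), 10.1 kb away, had 153, 87.4, 115, 184 and 82.7 CPM in Mef2.IR replicates 1 to 5, against 300.2, 338, 295, 304 and 264 CPM in Ctrl replicates 1 to 5. In Mef2.IR flies both varied widely, and CG17192 was far lower in replicate 5 than in any other library. The means were 77.0% lower for CG17192 and 58.6% lower for CG6295. Per kb of exon, CG6295 was the higher of the 2, with 114 CPM per kb in Mef2.IR libraries and 275 CPM per kb in Ctrl libraries, against 14.4 and 62.6 CPM per kb for CG17192 in Mef2.IR and Ctrl libraries.

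Lipase genes beside them did not follow. CG6277 rose, with 92.4 ± 25.8 CPM in Mef2.IR libraries and 54.6 ± 13.00 CPM in Ctrl libraries (SD, n = 5 each) (log2 change 0.76, SE 0.19, adjusted p = 0.0185 by edgeR), a call that was lost without Ctrl replicate 1, 2 or 3 (adjusted p 0.0502 to 0.0517). CG6271 rose from a low level, with 1.27 ± 0.741 CPM in Mef2.IR libraries and 0.168 ± 0.074 CPM in Ctrl libraries (SD, n = 5 each) (log2 change 2.89, SE 0.47, adjusted p = 0.00214). CG6283, 1.95 kb from CG17192 (log2 change 0.04, SE 0.21, adjusted p = 0.899), and CG6296, 0.429 kb from CG6295 (log2 change -0.39, SE 0.28, adjusted p = 0.342), were not called, and CG17191 was too low to test. CG31075, a further gene within 30 kb, rose (log2 change 0.39, SE 0.11, adjusted p = 0.0357), and that call was lost without any 1 Mef2.IR library or Ctrl replicate 1, 2 or 3 (adjusted p 0.0524 to 0.0964). The treatment of reads that match several places is not given in the sources used here, so the split of reads among these related genes is uncertain.

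Over the wider list of pancreatic-type and acid lipases, 5 of 30 tested genes outside the set rose and 6 fell, with a median log2 change of -0.15, beside a median of -0.00 over all tested genes. The smallest adjusted p values were those of CG6271 and of CG18284, which fell (log2 change -0.50, SE 0.08, adjusted p = 0.0022 by edgeR). At an unadjusted p under 0.05 by edgeR, 10 of the 30 were lower and 6 higher, and DESeq2 called 8 lower and 5 higher. Without Mef2.IR replicate 4, 10 fell, and without Ctrl replicate 1, 2 or 3, 3 rose.

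**Figure D3:**
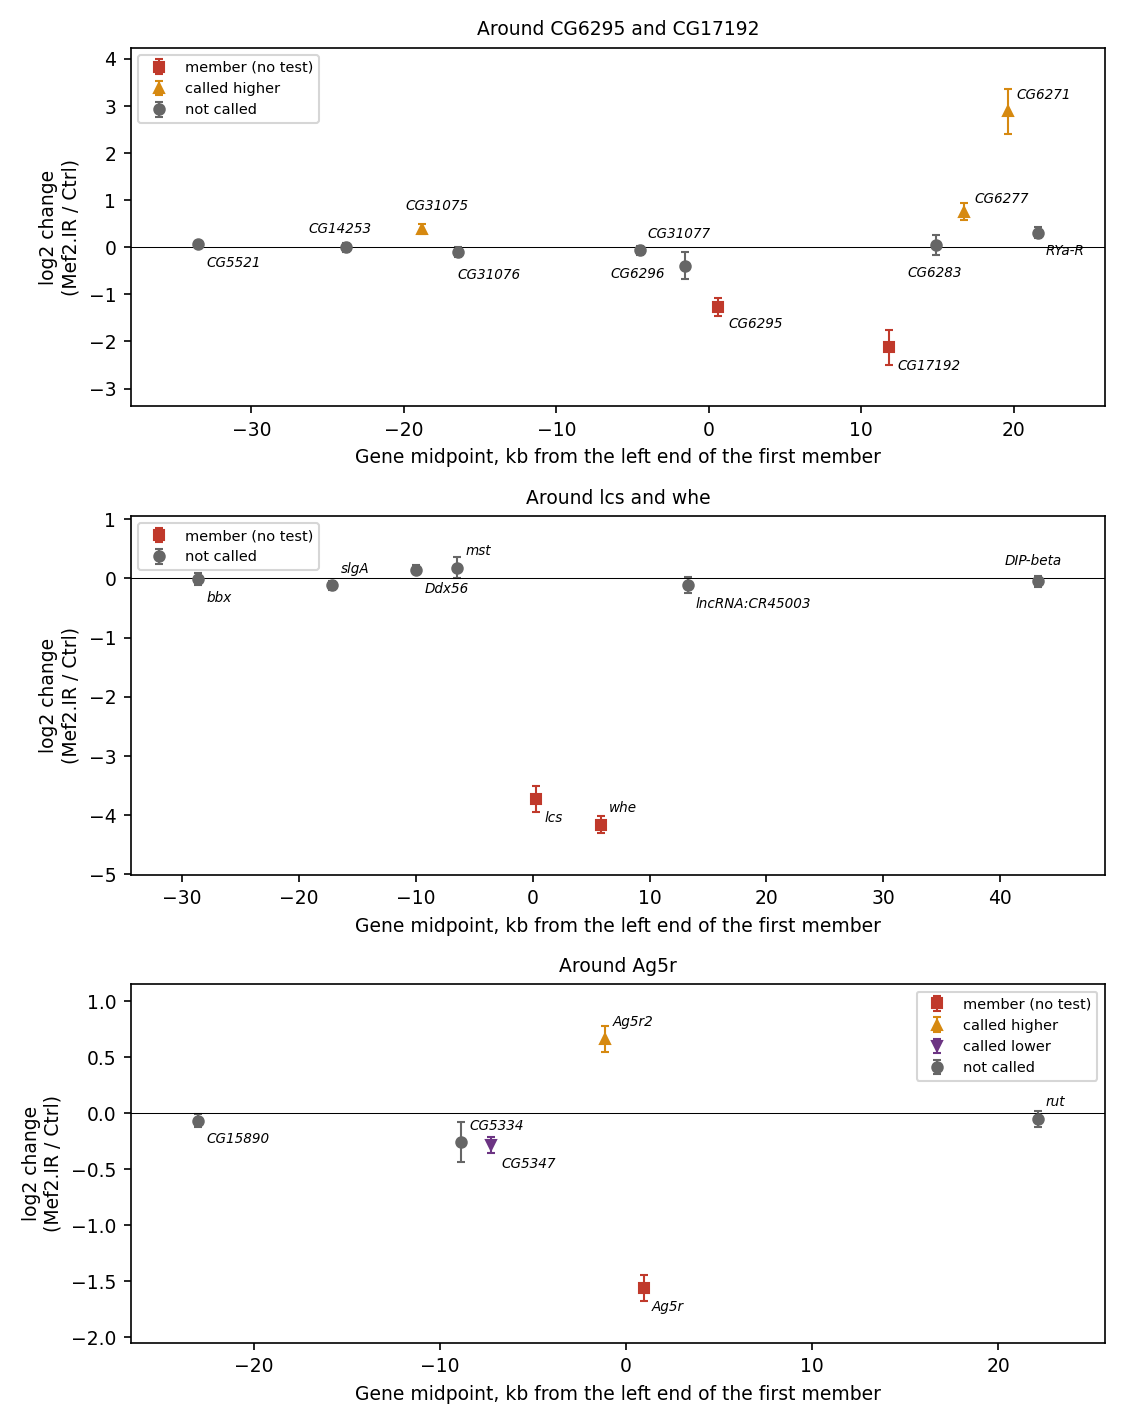
log2 change (Mef2.IR over Ctrl) with its SE for tested genes within 30 kb of 3 groups of members, by gene midpoint in kb from the left end of the first member. Red squares are members, shown without a call although their SE comes from the same fit. Orange triangles were called higher by edgeR, purple ones lower, and grey circles were not called. CG6295 and CG17192 lie below 0 near CG6277 and CG6271 above it, lcs and whe are the only genes far below 0 in their window, and Ag5r lies below 0 beside Ag5r2 above it.

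A further lipase gene in the set was dob (FBgn0030607, chrX:15067007-15069091, plus strand), a paralogue of brummer (bmm), the triglyceride lipase of lipid droplets. It had 27.9, 27.3, 24.8, 12.2 and 14.04 CPM in Mef2.IR replicates 1 to 5, against 37.9, 36.6, 46.4, 48.1 and 47.7 CPM in Ctrl replicates 1 to 5. In Mef2.IR flies replicates 4 and 5 were well below replicates 1 to 3, and in Ctrl flies they were the highest. The mean was 51.0% lower, the least of the set. The paralogue bmm averaged 129 ± 23.9 CPM in Mef2.IR libraries and 109.8 ± 4.73 CPM in Ctrl libraries (SD, n = 5 each) and was not called (log2 change 0.24, SE 0.10, adjusted p = 0.124 by edgeR). Lsd-2, a perilipin gene on the opposite strand whose end lies 0.035 kb from that of dob, was not called either (log2 change -0.11, SE 0.09, adjusted p = 0.439).

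Among 27 tested genes of lipid synthesis and lipid droplets, which held no member, 8 fell and 4 rose, with a median log2 change of -0.11. FASN2, a fatty acid synthase gene, fell (log2 change -0.65, SE 0.10, adjusted p = 0.00136 by edgeR), as did AcCoAS, the gene of acetyl-CoA synthetase (log2 change -0.55, SE 0.09, adjusted p = 0.00192). FASN2 also stands on the oenocyte list, whose sums are given above. The listed symbols FASN1, FASN3 and desatF had no match and were left out. The number that rose was 1 without Ctrl replicate 1, 2, 3 or 4 or Mef2.IR replicate 5, and 2 without Ctrl replicate 5 or Mef2.IR replicate 4.

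Serine protease genes in the set were CG34290 (FBgn0085319, chr3R:24288553-24289818, minus strand) and CG30371 (FBgn0050371, chr2R:8267643-8269334, minus strand). CG34290, near the level threshold, had 0.216, 0.331, 0.228, 0.251 and 0.518 CPM in Mef2.IR replicates 1 to 5, against 2.21, 2.41, 2.43, 2.63 and 2.21 CPM in Ctrl replicates 1 to 5. These values rest on 11 to 34 counts in Mef2.IR libraries and 100 to 136 counts in Ctrl libraries, and the mean was 87.0% lower. CG30371 had 20.6, 21.01, 17.1, 38.2 and 33.4 CPM in Mef2.IR replicates 1 to 5, against 57.4, 57.5, 57.97, 73.1 and 65.5 CPM in Ctrl replicates 1 to 5. Its replicates 4 and 5 were the highest in both groups, and the mean was 58.2% lower.

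Digestive protease genes outside the set had calls in both directions. Of 30 tested trypsin-like genes, 4 fell and 1 rose, with a median log2 change of 0.03. Jon74E was 1 of the 4, and since it met the rule on these values its call is no independent count. Jon44E rose (log2 change 1.93, SE 0.27, adjusted p = 0.000818 by edgeR). Jon74E averaged 108 ± 45.4 CPM in Mef2.IR libraries and 291 ± 40.9 CPM in Ctrl libraries (SD, n = 5 each). At an unadjusted p under 0.05 by edgeR, 9 of the 30 were lower and 3 higher, and DESeq2 called 5 lower and 2 higher. Without Mef2.IR replicate 4, 8 fell and 2 rose, and without Ctrl replicate 5, 2 rose. Of 20 tested carbohydrate digestion enzymes, 3 rose and 0 fell by edgeR, with a median log2 change of 0.37. At an unadjusted p under 0.05, 7 were higher and 1 lower, DESeq2 called 5 higher and 1 lower, and with the replicate number as a block 11 rose and 2 fell. The maltase gene Mal-A4 (log2 change 1.07, SE 0.16, adjusted p = 0.00147) and the lysosomal mannosidase gene LManII (log2 change 0.56, SE 0.09, adjusted p = 0.00219) rose, and within replicates 4 and 5 alone the call of LManII was lost (log2 change 0.27, adjusted p = 0.138). Without Ctrl replicate 5, 5 rose, and without Mef2.IR replicate 4 or 5, 1 fell.

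Secreted proteins with defence-related or sugar-binding folds gave 3 members. Ag5r (FBgn0015010, chrX:14784664-14786551, minus strand), named for its likeness to the antigen 5 protein of insect venom, had 60.9, 56.3, 65.7, 88.5 and 84.4 CPM in Mef2.IR replicates 1 to 5, against 201, 197, 205, 224 and 227 CPM in Ctrl replicates 1 to 5. Replicates 4 and 5 were the highest in both groups, the groups were far apart, and the mean was 66.3% lower. Its paralogue Ag5r2, 0.611 kb away on the same strand, rose, with 44.8 ± 4.14 CPM in Mef2.IR libraries and 28.4 ± 5.52 CPM in Ctrl libraries (SD, n = 5 each) (log2 change 0.66, SE 0.12, adjusted p = 0.00358 by edgeR). The related genes scpr-A, scpr-B, scpr-C and antr had log2 changes of -0.23 to -0.11 and were not called. CG5347, within 30 kb of Ag5r, fell (log2 change -0.29, SE 0.07, adjusted p = 0.0236), a call that was lost without Ctrl replicate 1, 3 or 4 (adjusted p 0.0517 to 0.0535).

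Lectin-galC1 (FBgn0016675, chr2L:19417447-19418274, plus strand), a galactose-binding C-type lectin gene, had 15.4, 15.7, 17.2, 5.07 and 7.85 CPM in Mef2.IR replicates 1 to 5, against 31.3, 31.1, 29.98, 24.7 and 26.2 CPM in Ctrl replicates 1 to 5. Replicates 4 and 5 were the lowest in both groups, most so in Mef2.IR flies, and the mean was 57.2% lower. The gene lectin-37Da, which begins 0.042 kb after it on the same strand, was not called (log2 change -0.43, SE 0.31, adjusted p = 0.336 by edgeR). Its Mef2.IR libraries were split, with 61.8, 67.0, 168, 203 and 189 CPM in replicates 1 to 5. Its Ctrl libraries lay between 151 and 224 CPM. The gene lectin-37Db, farther along the same strand, narrowly missed a call (log2 change -0.45, SE 0.14, adjusted p = 0.05005 by edgeR). Of 11 tested C-type lectin genes outside the set, 2 rose and 2 fell. The genes lectin-28C (log2 change 1.34, SE 0.13, adjusted p = 7.54e-05) and lectin-24Db (log2 change 0.41, SE 0.09, adjusted p = 0.0122) rose, and within replicates 4 and 5 alone the call of lectin-24Db was lost (log2 change 0.26, adjusted p = 0.0737). The genes lectin-21Ca (log2 change -0.39, SE 0.09, adjusted p = 0.0169) and lectin-46Ca (log2 change -0.18, SE 0.05, adjusted p = 0.039) fell, and the call of lectin-46Ca was lost without any 1 Ctrl library or Mef2.IR replicate 1, 2 or 3 (adjusted p 0.0502 to 0.0829).

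CG31832 (FBgn0051832, chr2L:15030928-15031750, minus strand), which encodes a fibrinogen-like protein, was the member closest to the level threshold. It had 0.687, 0.749, 0.519, 0.890 and 0.502 CPM in Mef2.IR replicates 1 to 5, against 1.55, 1.93, 2.24, 2.23 and 2.59 CPM in Ctrl replicates 1 to 5. These values rest on 25 to 77 counts in Mef2.IR libraries and 77 to 118 counts in Ctrl libraries. The groups came closest in Mef2.IR replicate 4 and Ctrl replicate 1, and the mean was 68.2% lower.

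Of the other enzyme genes, alpha-Man-Ic (FBgn0051202, chr3R:29928701-29930386, minus strand) encodes a class I mannosidase, a type that trims mannose from N-glycans. It had 1.65, 1.75, 1.39, 1.60 and 1.71 CPM in Mef2.IR replicates 1 to 5, against 6.85, 6.84, 7.35, 6.99 and 6.48 CPM in Ctrl replicates 1 to 5. Its relative spread was the smallest of the members in each group, and the mean was 76.5% lower. Its paralogues alpha-Man-Ia (log2 change 0.05, SE 0.05, adjusted p = 0.449 by edgeR) and alpha-Man-Ib (log2 change 0.04, SE 0.05, adjusted p = 0.612) were not called. CG10621 (FBgn0032726, chr2L:18952206-18954431, minus strand), annotated as a homocysteine S-methyltransferase, an enzyme type that makes methionine, had 49.9, 47.5, 43.9, 34.4 and 39.2 CPM in Mef2.IR replicates 1 to 5, against 86.7, 99.2, 98.5, 108 and 101 CPM in Ctrl replicates 1 to 5. The groups were well apart, and the mean was 56.5% lower.

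Iris (FBgn0031305, chr2L:1132332-1134098, minus strand) is a host gene derived from a viral envelope gene, and had 43.5, 43.1, 40.5, 28.9 and 34.7 CPM in Mef2.IR replicates 1 to 5, against 93.6, 96.6, 107, 115 and 118 CPM in Ctrl replicates 1 to 5. In Mef2.IR flies replicates 4 and 5 were the lowest and in Ctrl flies the highest, and the mean was 64.1% lower. Its exons overlap TBC1D23 on the other strand, which rose (log2 change 0.19, SE 0.05, adjusted p = 0.0279 by edgeR). That call was lost without any 1 Ctrl library or Mef2.IR replicate 4 or 5 (adjusted p 0.0533 to 0.0904).

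CG9837 (FBgn0037635, chr3R:8807679-8813579, minus strand), which encodes 207 amino acids and shares exon sequence with aqz on the same strand, had 20.6, 23.04, 17.9, 9.10 and 10.6 CPM in Mef2.IR replicates 1 to 5, against 33.97, 28.9, 31.8, 35.7 and 36.9 CPM in Ctrl replicates 1 to 5. Replicates 4 and 5 were the lowest in Mef2.IR flies and the highest in Ctrl flies, and the mean was 51.4% lower. The one noncoding member, lncRNA:CR43411 (FBgn0263330, chr2L:14613258-14613621, plus strand), lies inside the span of osp and had 1.96, 2.24, 1.51, 1.28 and 1.04 CPM in Mef2.IR replicates 1 to 5, against 4.86, 3.93, 3.87, 5.22 and 5.04 CPM in Ctrl replicates 1 to 5. These values rest on 56 to 230 counts in Mef2.IR libraries and 204 to 262 counts in Ctrl libraries, and the mean was 65.0% lower.

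The libraries fell into replicates 1 to 3 and replicates 4 and 5, a division seen in the counts and named by no label. Across genes, deviations from the group means correlated at 0.23 to 0.38 between a Mef2.IR and a Ctrl library of the same number, at 0.17 to 0.42 between other numbers of the same set, and at -0.37 to -0.11 between sets. Deviations cancel out across the libraries of a group, so positive values within sets bring negative values between sets. The negative values are thus no separate observation. The members differed in how their ratio split over the sets, as the plot of ratios by set shows. The ratio of Mef2.IR to Ctrl was over 1.5 times lower in replicates 4 and 5 for 5 members. The share of all genes with such a split was not computed, so this count only describes the members. Within replicates 4 and 5 alone 84 genes met the rule, and within replicates 1 to 3 alone 19 did. For dob the log2 ratio was -0.60 in the set of replicates 1 to 3, and in the set of replicates 4 and 5 it was -1.87. For CG9837 the values were -0.62 and -1.88, for Lectin-galC1 -0.93 and -1.98, for lncRNA:CR43411 -1.15 and -2.15, and for Iris -1.23 and -1.88. Within replicates 1 to 3, dob, CG9837 and Lectin-galC1 were thus not halved. CG30371 had a ratio over 1.5 times higher in replicates 4 and 5, with log2 ratios of -1.56 and -0.95. For whe the values were -4.22 and -4.10, and for alpha-Man-Ic -2.13 and -2.03. The difference between the sets was not tested. Of the genes outside the set, CG6277, CG31075, CG6356, lectin-46Ca, asRNA:CR44130 and Jon74E also lost their calls within replicates 4 and 5 alone (adjusted p 0.0765 to 0.605).

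The members also differed in which way the sets lay within a group. Among Mef2.IR libraries, replicates 4 and 5 were both below replicates 1 to 3 for 6 members and both above for 6, against 26.4% and 36.6% of genes with at least 2 CPM. Among Ctrl libraries they were both below for 1 member and both above for 12, against 21.4% and 28.3% of those genes. In dob, CG9837, Iris, CG10621 and lncRNA:CR43411 they were the lowest in Mef2.IR flies and the highest in Ctrl flies. In whe, lcs, CG16826, Ag5r and CG30371 they were the highest in both groups. The shares of all genes with these joint patterns were not computed. Low Mef2.IR values and high Ctrl values in replicates 4 and 5 help a gene to meet the rule. Nothing is thus read from the joint patterns.

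**Figure D4:**
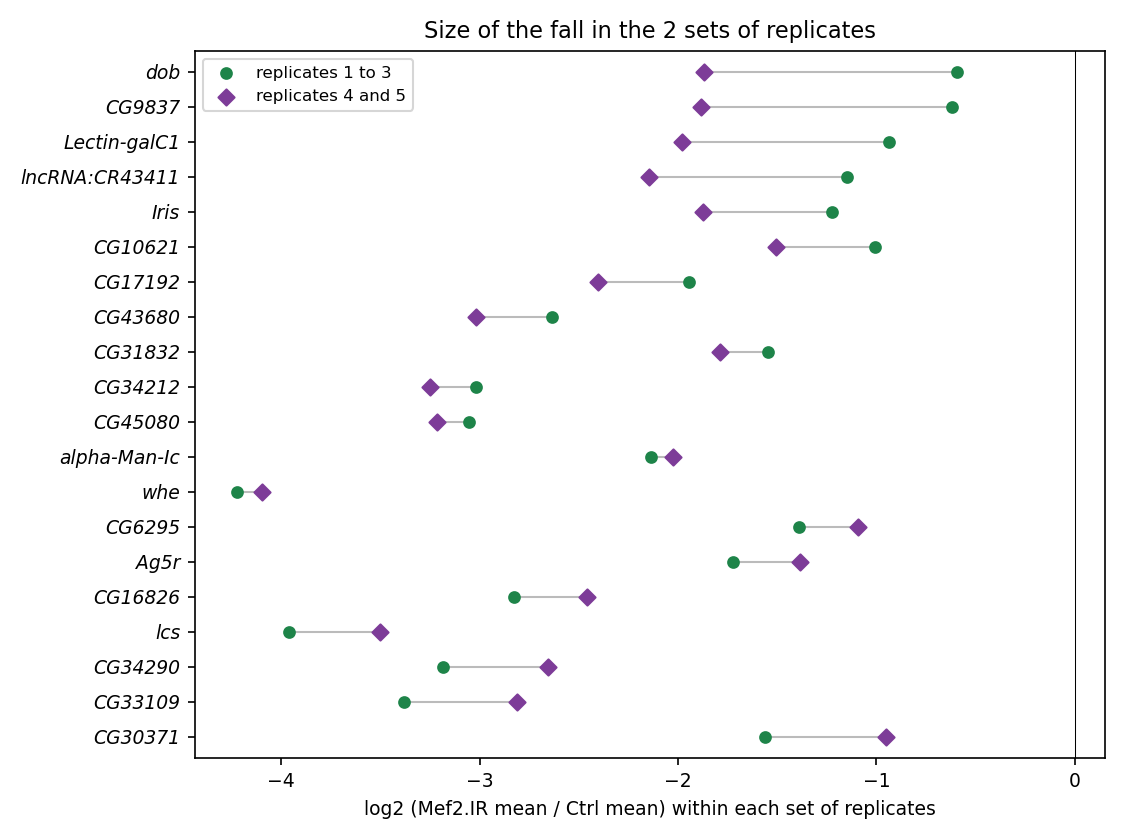
log2 ratio of the Mef2.IR mean to the Ctrl mean of each member within replicates 1 to 3 (green circles, n = 3 per group) and within replicates 4 and 5 (purple diamonds, n = 2 per group), in order of the difference between them. All values lie left of 0, which the demand of no overlap fixed. The gap is widest for dob and CG9837, at -0.60 and -1.87 for dob.

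All 20 members varied relatively more among Mef2.IR libraries than among Ctrl libraries, as did 76.6% of genes with at least 2 CPM. Relative spread divides by the mean, and the rule itself took genes with a low Mef2.IR mean. Nothing is thus read from the members' relative spread. Their median coefficient of variation was 27.5% in Mef2.IR libraries and 10.5% in Ctrl libraries, against 10.4% and 6.01% over those genes in Mef2.IR and Ctrl libraries. Leaving out any 1 library moved a member's ratio by at most 1.204 times, for CG34290, whose mean was then 86.0% to 89.2% lower. The mean of CG17192 was then 72.6% to 79.8% lower, that of dob 45.7% to 54.8% lower and that of CG9837 46.05% to 56.5% lower.

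Several features that the rule did not use recurred among the members. They were short, with a median of 1038.5 nucleotides of exon, against 1875 over genes with at least 2 CPM. The 19 coding members had a median protein length of 282 amino acids, against 435, and 4 of the 19 encode fewer than 100 amino acids (21.1%, against 4.11%). In 9 of 20 members no transcript had more than 1 exon, against 14.2% of those genes. The minus strand held 16 of 20 members, against 50.3%. These shares were not tested. By chromosome arm, 7 members lay on 3R, which holds 24.9% of those genes, 6 on 2L (19.3%), 4 on X (15.5%), 2 on 2R (20.2%) and 1 on 3L (19.1%). Exons of 5 members overlapped another gene, in 4 cases on the other strand (Ag5r, Iris, CG34290 and alpha-Man-Ic), and 6 members lay inside the span of another gene. The shares of all genes with such overlaps or positions were not computed, so these counts are not read as features of the members. The kit keeps strand, but whether the counting used it is not given in the sources used here, so reads in such overlaps are uncertain.

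The genes next to the members were also examined. The next tested gene by start position on each side that was no member gave 36 genes. Of these 5 (13.9%) rose and 1 (2.78%) fell, beside 11.1% and 5.51% of all tested genes, with a median log2 change of -0.11. Genes that overlap a member were thus included only in part. For example, osp and Pax were among the 36, and RYa-R, whose span holds CG6295 and CG17192, was not. TBC1D23, Ag5r2 and Sp212 rose as given above. So did yellow-c, 3.64 kb from CG31832 (log2 change 0.29, SE 0.07, adjusted p = 0.0149 by edgeR), and asRNA:CR44130, 2.14 kb from CG34212 (log2 change 0.95, SE 0.28, adjusted p = 0.0379). The call of asRNA:CR44130 was lost without Mef2.IR replicate 4 or 5 or Ctrl replicate 1, 2, 3 or 5 (adjusted p 0.0664 to 0.0969). CG6356, whose exons overlap those of CG34290 on the other strand, fell (log2 change -0.25, SE 0.07, adjusted p = 0.0395), a call that was lost without Mef2.IR replicate 3, 4 or 5 or Ctrl replicate 1, 2 or 3 (adjusted p 0.0567 to 0.0884). With the replicate number as a block, 2 neighbours fell. Within replicates 1 to 3 alone, 6 fell, where 1386 of 13977 tested genes were called lower, and within replicates 4 and 5 alone, 4 fell, where 2011 of 13927 were. The difference between neighbours and other genes was not tested.

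Myofibril genes, the textbook targets of Mef2 in muscle, held no member. The listed symbols wupA and Unc-89 had no match and were left out. Of 27 tested, edgeR called 0 in either direction, with 2 higher and 0 lower at an unadjusted p under 0.05, and DESeq2 and the fit with the replicate block called 1 higher each. Their median log2 change was 0.08. The smallest adjusted p values were those of TpnC73F, a troponin C gene (log2 change 0.30, SE 0.09, adjusted p = 0.0501 by edgeR), and Act57B, a muscle actin gene (log2 change 0.21, SE 0.08, adjusted p = 0.0944). Without Ctrl replicate 1 or 2, TpnC73F was called higher (adjusted p = 0.0371 and 0.0401). Of 29 tested genes for secreted and storage proteins of the fat body, 9 rose and 2 fell, with a median log2 change of 0.29. Gnbp-like3 of that list had no match. Npc2a, a sterol carrier gene, rose (log2 change 0.67, SE 0.07, adjusted p = 6.9e-05), and Idgf6, an imaginal disc growth factor gene, fell (log2 change -0.47, SE 0.06, adjusted p = 0.0007).

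The edge of the rule passed through a continuous range of values. Just inside the fold stood dob, CG9837, CG10621 and Lectin-galC1, which were 51.0%, 51.4%, 56.5% and 57.2% lower. Just outside it stood CG17571, CG12057, CR44391 and CG13315, which were 49.3%, 47.6%, 47.5% and 47.3% lower. Just inside the level stood CG31832, CG34290 and lncRNA:CR43411, with Ctrl means of 2.11, 2.38 and 4.58 CPM. Just outside it stood lncRNA:CR44460, lncRNA:CR44442 and Met75Ca, with Ctrl means of 1.84, 1.43 and 1.25 CPM. At the level of the rule, 5 genes were halved but overlapped between the groups, namely CG4830, TotM, CG8299, CG13947 and CG7299.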

How the data were processed

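RNA was measured in 10 libraries, 5 Mef2.IR and 5 Ctrl, each from 5 whole males. Per the labels' protocols, stranded mRNA libraries were sequenced on a NextSeq 500. Per the submitters' processing notes, bcl2fastq, STAR 2.4.0j, featureCounts and limma were used with build BDGP6. The authors deposited whole-number counts per gene, not normalized. For the annotation release, the strand setting and multiply matching reads, nothing is given in the sources used here. Identifiers were matched to a BDGP6 annotation, and 17253 of 17559 had a symbol and position.

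CPM came from raw column totals. Log2 changes and p-values of genes that are no members came from edgeR 4.0.16 (R 4.3.3) with TMM scaling, filterByExpr, group as the only term and an adjusted p under 0.05 as a call. Each SE was derived as the size of the log2 change divided by the square root of the quasi-likelihood F statistic. DESeq2 1.42.0 was an alternative, and the scripts were tested on simulated data. The members and lists were chosen with earlier results of these data known, and paralogues were picked by name after the members were known. Every member, Mef2, w, called neighbours, the 2 genes of each list with the smallest adjusted p, and the genes nearest the rule's thresholds were named. No 2 libraries agreed within counting noise. Same-numbered Mef2.IR and Ctrl libraries deviated together in all 5 pairs (r 0.23 to 0.38, each over 0.1), so an alternative fit blocked on the number. The pairing comes from this check, not from the labels, and other numbers of the same set correlated as well. Alternatives also covered scaling, filters, thresholds and leaving out each library. No sequences are printed.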

Additional observations from a re-analysis of the deposited data

Results flagged for a closer look

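No member was flagged. Of 94 groups of 5 libraries checked, 40 of them groups of members, 5 had 1 library far from the rest, where chance alone gives about 1 in 20. Sp212, next to CG33109, had 44.7 CPM in Mef2.IR replicate 4, while the next highest Mef2.IR library had 27.7 CPM. Npc2a had 100.2 CPM in Mef2.IR replicate 4, with the next at 80.2 CPM. The gene lectin-46Ca had 101.4 CPM in Mef2.IR replicate 4, with the next at 86.0 CPM. AcCoAS had 511 CPM in Mef2.IR replicate 4, the lowest, with the next at 575 CPM. FASN2 had 925 CPM in Mef2.IR replicate 5, with the next at 795 CPM.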

How the results depend on the processing

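The rule gave the same 20 genes with TMM-scaled CPM and with DESeq2 size factors, 27 at 1 CPM, 17 at 5 CPM, 18 with group medians (17 shared) and 11 where the Ctrl mean had to be at least 3 times the Mef2.IR mean. It gave 19 to 26 without single libraries (26 without Mef2.IR replicate 3), 19 within replicates 1 to 3 (16 shared) and 84 within replicates 4 and 5 (19 shared, CG30371 lost). Without Mef2.IR replicate 4 or 5, dob and CG9837 were lost, without Ctrl replicate 4, dob, and without Ctrl replicate 5, dob and CG31832. The fits of other genes within the sets were chosen after seeing the data.

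Genes called lower numbered 1299 with DESeq2, 1386 within replicates 1 to 3, 2011 within replicates 4 and 5, and 414 to 941 without single libraries, and genes called higher 853 to 1612. Neighbours that fell numbered 6 within replicates 1 to 3, 4 within replicates 4 and 5, and 0 to 1 without single libraries. Carbohydrate enzymes that fell numbered 1 with upper-quartile scaling, 1 with DESeq2, 2 within replicates 1 to 3, 1 within replicates 4 and 5 and 0 to 1 without single libraries, and those that rose 5 with DESeq2, 14 within replicates 1 to 3 and 2 to 5 without single libraries. Trypsin-like genes that fell numbered 7 within replicates 1 to 3 and 3 to 8 without single libraries, and those that rose 2 with DESeq2, 11 within replicates 1 to 3 and 1 to 2 without single libraries. Secreted protein genes that rose numbered 14 with DESeq2 (13 among the genes edgeR tested, the other being Fbp1), 18 within replicates 1 to 3 and 6 to 10 without single libraries, and those that fell 6 within replicates 4 and 5 and 2 to 3 without single libraries. Myofibril genes that rose numbered 1 with DESeq2, 2 within replicates 1 to 3, 1 within replicates 4 and 5 and 0 to 1 without single libraries, and 1 fell within either set. Without single libraries, lipases that fell numbered 4 to 10 and that rose 3 to 5, and lipid synthesis genes that fell 7 to 9 and that rose 1 to 4. The cause was not tested.

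With the replicate number as a block, 2 neighbours fell, 11 carbohydrate enzymes rose and 2 fell, and 1 myofibril gene rose. The block changed no other call of a named gene and moved no other count by over 1.5 times. Over all alternatives, 198 counts stayed within 1.5 times and 60 did not. For single genes outside the set, 378 values kept direction and call, 50 lost the call, 4 gained it and none changed sign. Low counts limit CG34290, CG31832 and lncRNA:CR43411 most.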
